A study of Mus musculus with 6 samples.

Results

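Clec7a and 9 further C-type lectin receptor genes of myeloid cells (Clec5a, Clec4d, Clec4e, Clec4n, Clec4a1, Clec4a2, Clec4a3, Clec10a and Mgl2) were followed after spinal cord injury in mice. They were picked by gene symbol from the unfiltered table of the study; all 10 had a row among its 13940 symbols, and all 10 were among the 13042 genes that could be tested. The libraries came from macrophage-enriched RNA at 7 days (3 libraries) and 3 days (3 libraries) after a contusion of the cord at T8. In both groups the animals were CD45.1 chimeras with the genotype LysMCre:Rplfl/fl > CD45.1. LysM-Cre drives recombination in macrophages, monocytes and neutrophils, so the tag that it switches on a ribosomal protein (the RiboTag method) is not particular to macrophages. Ribosomes carrying the tag were pulled out of tissue from the injury and the RNA bound to them was sequenced. Ages are not given, no uninjured cord and no unprecipitated RNA was used here, and the labels do not say that each library came from its own animal. The p-values therefore measure the spread between these libraries, which may be technical. In such bulk RNA, fewer cells of a type and less RNA per cell cannot be told apart.

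C-type lectin receptors are membrane proteins that bind sugars, lipids or proteins on microbes and on damaged cells. Clec7a (dectin-1, the receptor for fungal beta-glucan) carries its own signalling motif in its tail, whereas Clec4n (dectin-2), Clec4d (MCL) and Clec4e (Mincle) signal through the adaptor Fcer1g and Clec5a (MDL-1) signals through the adaptor Tyrobp. These receptors converge on the kinase Syk, which acts on NF-kB through Card9, Bcl10 and Malt1. Clec4a2 (DCIR) carries an inhibitory motif that recruits phosphatases. Clec10a and Mgl2 bind galactose-type sugars and are used as markers of alternatively activated macrophages and of some dendritic cells. In diseased nervous tissue, Clec7a is widely used as a marker of disease-associated microglia.

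The lectins split by time. Clec7a and Clec5a rose at 7 days relative to 3 days, Clec4d, Clec4n, Clec4e and Mgl2 fell, and Clec4a1, Clec4a2, Clec4a3 and Clec10a did not pass the test. A gene passed, or was called, when its adjusted p from limma was no more than 0.05 on log2(FPKM + 1), where FPKM is a level scaled to transcript length and to sequenced fragments. Of the 10 genes, 2 were called higher, against 18.8% of all tested genes, and 4 were called lower, against 20.3%. The count called lower was 2 with quantile normalization, with median centring and without 3-day replicate 1, 3-day replicate 3 or 7-day replicate 3. The median log2 difference of the 10 was -0.35, beside -0.04 over all genes tested. All 7-day libraries lay above all 3-day libraries for 2 of the 10 genes (26.8% of all tested genes) and below them for 4 (28.6%). The results are therefore about single receptors more than about the set.

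**Figure D1:**
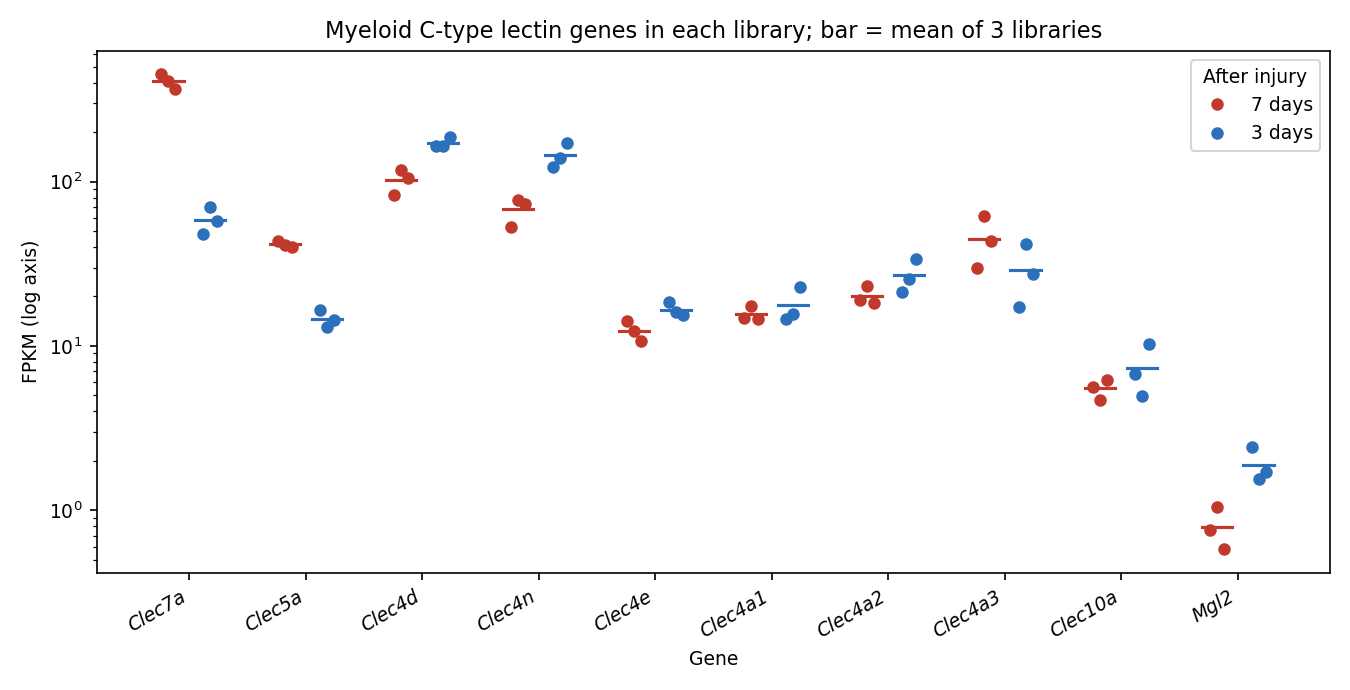
FPKM (log axis) of each lectin gene in the 3 libraries at 7 days (red) and the 3 at 3 days (blue), with a bar at each group's mean. Clec7a at 7 days lies above every other value plotted, and Mgl2 lies lowest at both times.

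Clec7a was the receptor with the largest difference. Its level was 450.0, 410.1 and 367 FPKM in the 7-day libraries, against 48.0, 70.0 and 57.6 FPKM in the 3-day libraries. Every 7-day library was thus above every 3-day library, and the values within each time lay close together. The 7-day mean was 409 ± 41.5 FPKM and the 3-day mean 58.5 ± 11.1 FPKM (SD, n = 3 each), a 6.99-fold ratio. The log2 difference was 2.80 ± 0.15 (SE; 95% interval 2.43 to 3.16; limma adjusted p = 9.33e-05). By log2 difference, Clec7a ranked 13 from the top among 13042 genes. The call held in 15 of 15 alternative settings, with log2 differences between 2.57 and 2.93.

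Clec5a, which relays signals of myeloid cells through Tyrobp, was the other receptor that rose. It stood at 43.6, 41.4 and 39.9 FPKM at 7 days, against 16.5, 13.1 and 14.5 FPKM at 3 days. The times did not overlap, and the 7-day libraries were within a narrow range. The ratio of means was 2.84 and the log2 difference 1.45 ± 0.11 (SE; 95% interval 1.19 to 1.71; limma adjusted p = 0.000316), which held in 15 of 15 settings. Clec5a ranked 135 from the top. The difference on the log2 scale was larger for Clec7a than for Clec5a by 1.31 when taken as the log2 ratio of the FPKM of both genes within each library. An exact two-sided permutation test of that ratio gave p = 0.1, the smallest that 3 against 3 libraries allow; it was 1 of 4 such ratios tested.

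The 3 receptors that pair with Fcer1g fell together in direction but not in size. Clec4n, a receptor for fungal mannan, had 53.2, 77.9 and 72.9 FPKM at 7 days, against 123.4, 139 and 171 FPKM at 3 days. Its log2 difference of -1.08 ± 0.18 (SE; 95% interval -1.50 to -0.67; limma adjusted p = 0.00396) was the most negative of the 10 on the log2(FPKM + 1) scale. By the ratio of means, Mgl2 (0.421) was below Clec4n (0.470). Clec4d, which binds mycobacterial glycolipid and takes part in the surface expression of Clec4e, had 83.1, 117 and 106 FPKM at 7 days, against 165, 165 and 187 FPKM at 3 days. Its log2 difference was -0.76 ± 0.14 (SE; 95% interval -1.09 to -0.43; limma adjusted p = 0.0063). In neither gene did the times overlap, and both calls held in 15 of 15 settings.

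Clec4e, a receptor for mycobacterial cord factor and for a nuclear protein released by dying cells, was at 14.2, 12.3 and 10.7 FPKM at 7 days, against 18.5, 16.0 and 15.4 FPKM at 3 days. The libraries did not overlap, yet the gap between the groups was small. The log2 difference was -0.40 ± 0.13 (SE; 95% interval -0.71 to -0.08) with a limma adjusted p of 0.0499, just inside the threshold. The call was lost in 9 of 15 settings, where the adjusted p ran up to 0.149; over all settings it ran from 0.0339. Without any 1 of the 3-day libraries, or without 7-day replicate 2 or 3, the adjusted p lay between 0.0754 and 0.149. In the authors' deposited table the q-value of Clec4e is 0.406.

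**Figure D2:**
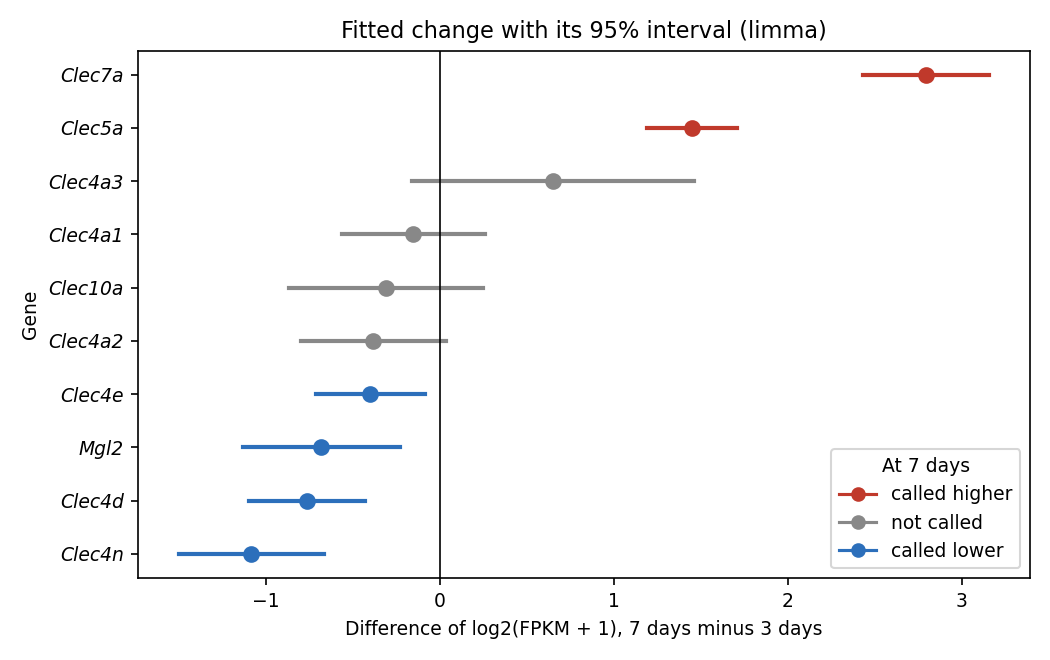
Difference of log2(FPKM + 1), 7 days minus 3 days, for each lectin gene, with its 95% interval from limma; red marks genes called higher at 7 days, blue called lower and grey not called. The intervals of Clec7a and Clec5a lie wholly above 0, those of Clec4n, Clec4d, Mgl2 and Clec4e wholly below, and the upper bound of Clec4e is -0.08.

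The galactose-type receptors were the lowest expressed of the set. Mgl2, which prefers N-acetylgalactosamine, was at 0.759, 1.04 and 0.581 FPKM at 7 days, against 2.41, 1.54 and 1.70 FPKM at 3 days. These were the lowest levels of the 10 genes in every library, and the times did not overlap. Its log2 difference was -0.68 ± 0.19 (SE; limma adjusted p = 0.0283), the ratio of means was 0.421, and the adjusted p ran from 0.0187 to 0.717 over 14 settings. With a pseudocount of 0.1 the difference was -1.16; with quantile normalization it was -0.12 and the call was lost; without 3-day replicate 1 or 3, or 7-day replicate 1 or 3, the adjusted p lay between 0.0501 and 0.0887. Clec10a, its neighbour, which recognises terminal galactose and Lewis X sugars in the mouse, had 5.65, 4.70 and 6.20 FPKM at 7 days, against 6.78, 4.95 and 10.2 FPKM at 3 days. The groups overlapped, and the log2 difference of -0.31 ± 0.24 (SE; 95% interval -0.87 to 0.25; limma adjusted p = 0.323) did not pass; it was -0.53 without 3-day replicate 2 and -0.07 without 3-day replicate 3.

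The Clec4a genes, called DCIR genes in the mouse, did not pass the test. Clec4a2, the member with an inhibitory motif, had 19.1, 23.2 and 18.2 FPKM at 7 days, against 21.4, 25.4 and 34.0 FPKM at 3 days. The log2 difference was -0.38 ± 0.18 (SE; 95% interval -0.80 to 0.04; limma adjusted p = 0.126), the groups overlapped, and the difference was -0.21 without 3-day replicate 3. Clec4a1, which has no inhibitory motif in the mouse, had 14.8, 17.4 and 14.5 FPKM at 7 days, against 14.7, 15.5 and 22.8 FPKM at 3 days. Its log2 difference of -0.15 ± 0.18 (SE; 95% interval -0.56 to 0.26; limma adjusted p = 0.508) was the nearest to 0 of the 10, and it was 0.04 without 3-day replicate 3. Clec4a3 had the largest SE of the 10 genes, with 29.96, 61.5 and 43.6 FPKM at 7 days, against 17.3, 42.0 and 27.3 FPKM at 3 days. The groups overlapped. The log2 difference was 0.65 ± 0.35 (SE; 95% interval -0.16 to 1.46; limma adjusted p = 0.169), and it ran from 0.34 without 3-day replicate 1 to 0.96 without 3-day replicate 2. In the authors' deposited table, Clec4a2 and Clec4a3 have q-values of 0.0449 and 0.0296, whereas Clec4a1 has 0.420 and Clec10a 0.15.

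The order of the receptors by FPKM, a level per length, also differed with time. At 7 days Clec7a stood first, followed by Clec4d, both apart from their neighbours in every library. Clec4n, Clec4a3 and Clec5a came next, and neighbours in that run overlapped. Clec4a2, Clec4a1, Clec4e, Clec10a and Mgl2 followed without overlap between neighbours. At 3 days Clec4d and Clec4n led and overlapped with each other, and Clec7a was the third. From Clec4a3 through Clec4a2, Clec4a1 and Clec4e to Clec5a, each neighbour overlapped with the next. Clec10a and Mgl2 were the lowest at both times.

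Summed over the 10 genes, the level was 714, 767 and 679.5 FPKM in the 7-day libraries, against 434, 492 and 542 FPKM in the 3-day libraries. Clec7a made up 63.0%, 53.5% and 54.0% of that sum at 7 days, against 11.1%, 14.2% and 10.6% at 3 days. Clec4d and Clec4n together made up 19.1%, 25.5% and 26.3% at 7 days, against 66.5%, 61.7% and 66.1% at 3 days. The leading receptor of the set was therefore a different one at each time. The other 9 genes without Clec7a summed to 264, 357 and 313 FPKM at 7 days, against 386, 422 and 484 FPKM at 3 days, so the larger sum at 7 days came with Clec7a. The FPKM ratio of Clec7a to Clec4d was 5.41, 3.495 and 3.46 at 7 days, against 0.291, 0.424 and 0.308 at 3 days. An exact two-sided permutation test of this log2 ratio gave p = 0.1, the smallest possible here. Clec7a rose and Clec4d fell without overlap, so the ratio had to separate the times and that p-value was fixed in advance. The ratio of Clec4d to Clec4n, tested likewise, differed by 0.33 on the log2 scale (exact p = 0.1), and that of Clec10a to Mgl2 by 0.91 (exact p = 0.2). No adjustment over the 4 ratios could lower these p-values.

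**Figure D3:**
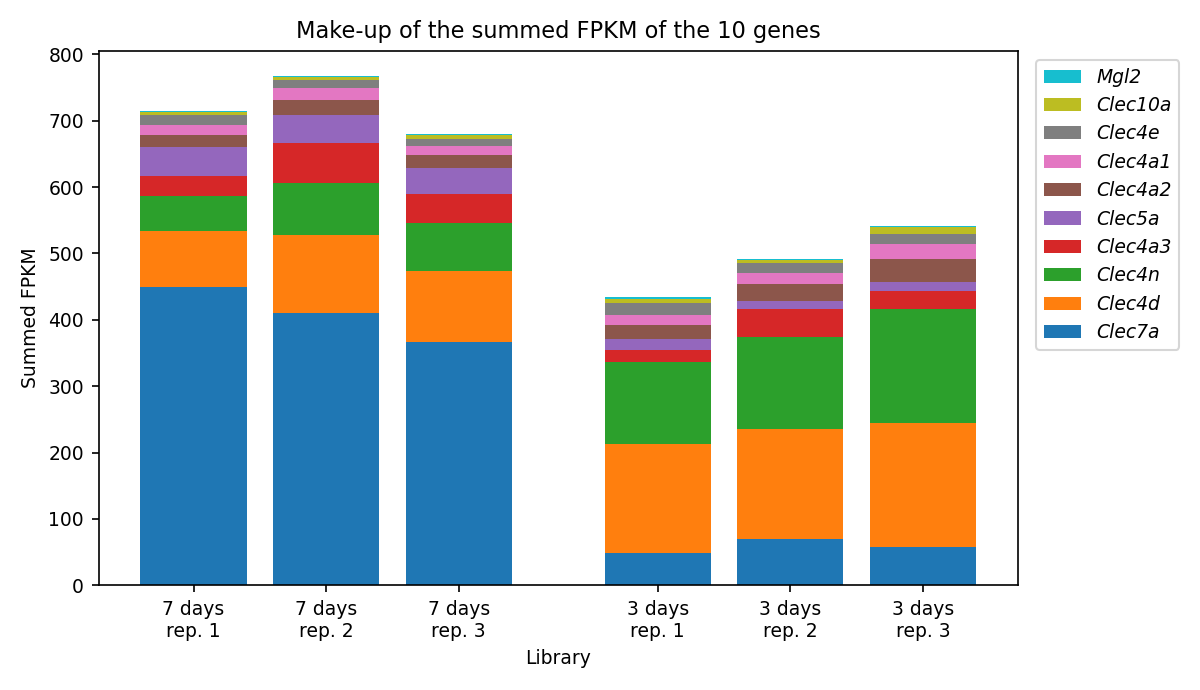
Summed FPKM of the 10 lectin genes in each library, 7-day libraries on the left and 3-day libraries on the right, with colours for the genes. The Clec7a segment fills 53.5% to 63.0% of the bars at 7 days and 10.6% to 14.2% at 3 days, where Clec4d and Clec4n fill 61.7% to 66.5%.

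The genes sit in few places in the genome (GENCODE M21 on GRCm38, the assembly that mm10 names). Clec4a1, Clec4a3, Clec4a2, Clec4n, Clec4d and Clec4e lie in that order on chromosome 6 between 122921848 and 123289870, a stretch of 368 kb known as the dectin-2 cluster. Clec7a (129461591 to 129472779, minus strand) lies farther along in the dectin-1 cluster, which spans 164 kb from Clec12a at 129342691 to Olr1 ending at 129507165. Clec5a (40574894 to 40585821, minus strand) lies apart on the same chromosome, and Mgl2 and Clec10a lie within 40.5 kb on chromosome 11. The annotation gives Clec7a the type polymorphic pseudogene and the other 9 the type protein coding.

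Within the dectin-2 cluster the genes called lower were the 3 at its far end, Clec4n, Clec4d and Clec4e. Of the other genes there, Clec4b1 had 10.3, 10.5 and 2.96 FPKM at 7 days, against 3.60, 2.03 and 4.04 FPKM at 3 days, and was not called, but was called higher without 7-day replicate 3 (limma adjusted p = 0.0118). Clec4a4 and Clec4b2, also in the cluster, have no row. In the dectin-1 cluster, Clec7a, Clec12a and Clec1a were called higher and Olr1, the next gene after Clec7a, was called lower, with log2 differences of 2.80, 2.04, 0.92 and -1.08. The call of Clec1a was lost without 7-day replicate 1 (limma adjusted p = 0.0542). Neighbours in a cluster thus did not all move in 1 direction. Olr1, Clec1a and Clec4b1 are named here for their position and not by the rule that chose the other genes.

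**Figure D4:**
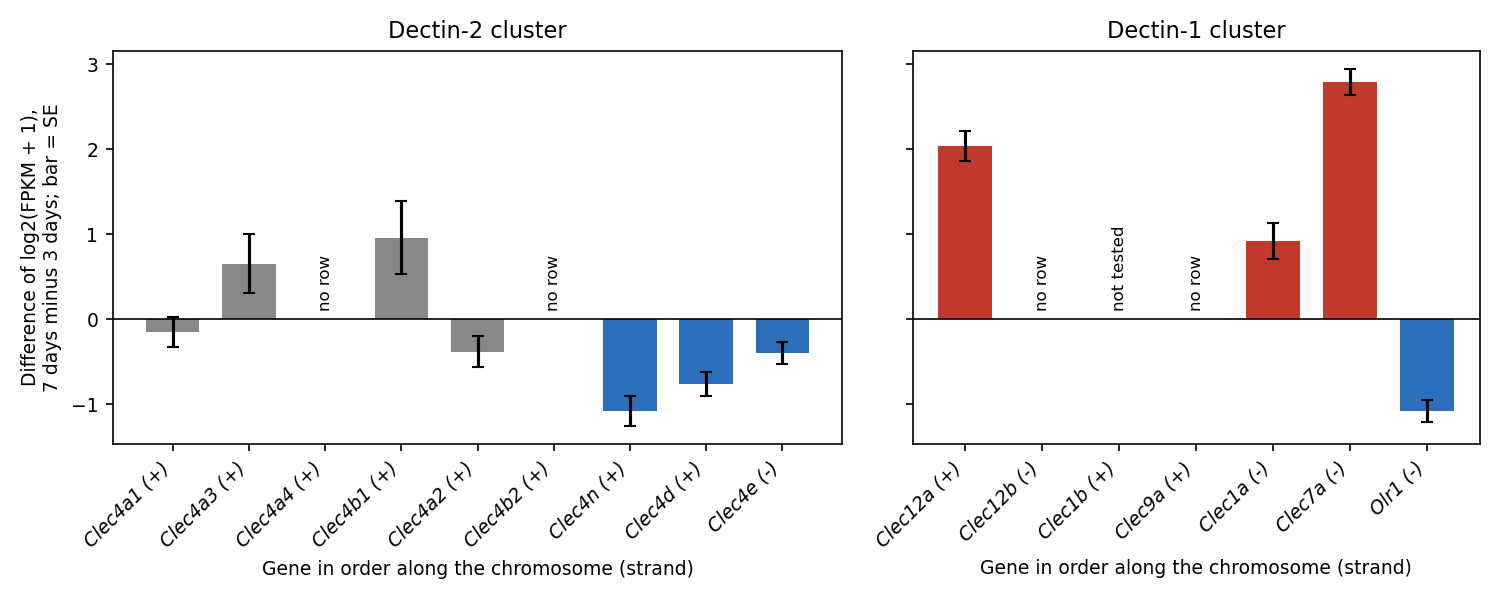
Difference of log2(FPKM + 1), 7 days minus 3 days, for the genes of the dectin-2 cluster (left) and the dectin-1 cluster (right) in their order along the chromosome, with strand in brackets and the SE as error bars. Red marks genes called higher at 7 days, blue called lower and grey not called; Clec7a reaches 2.80 and its neighbour Olr1 -1.08.

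How the table counted these genes bears on some values. Clec4d and Clec4e share 1 locus in the table (123261874 to 123289907) although the annotated genes lie on opposite strands with 6.52 kb between them. The table's locus for Clec4a3 runs over 643 bases (122952494 to 122953136) and holds 332 of the gene's 1327 annotated exonic bases, or 25.0%. That of Clec4a2 holds 69.9%, and those of the other 8 hold 94.7% to 100%. Among the 45 pairs of the 10 genes, only Clec10a and Mgl2 share transcript stretches of 50 bases, 270 of them, so their low levels are uncertain where reads could be split. Clec4a2 shares 6.69% of such stretches with other genes, most with Clec4a4, and Clec4n 0.686%, whereas Clec7a, Clec5a, Clec4d, Clec4e, Clec4a1 and Clec4a3 share none.

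Promoter sequences were taken from RefSeq (GRCm38.p6; 250 bases before to 50 after the start of the gene) and were found for 8 of the 10 genes, not for Clec4n and Clec10a. Those of the 2 genes that rose and of 2 that fell are printed because these receptors share a myeloid setting but move in opposite directions. Capitals mark GAGGAA or its reverse complement, the core bound by the myeloid factor PU.1; the motif was chosen after the promoters had been read. Clec7a lies at chr6:129472730-129473029, Clec5a at chr6:40585756-40586055 and Clec4e at chr6:123289822-123290121, all on the minus strand, and Clec4d at chr6:123261857-123262156 on the plus strand, each read 5′ to 3′ on the strand of the gene.
Clec7a: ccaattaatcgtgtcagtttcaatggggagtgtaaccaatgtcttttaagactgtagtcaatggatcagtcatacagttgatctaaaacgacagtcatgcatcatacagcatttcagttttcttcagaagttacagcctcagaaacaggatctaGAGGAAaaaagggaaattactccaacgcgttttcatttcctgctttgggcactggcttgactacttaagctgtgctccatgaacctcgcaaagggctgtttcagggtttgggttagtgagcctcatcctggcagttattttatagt
Clec5a: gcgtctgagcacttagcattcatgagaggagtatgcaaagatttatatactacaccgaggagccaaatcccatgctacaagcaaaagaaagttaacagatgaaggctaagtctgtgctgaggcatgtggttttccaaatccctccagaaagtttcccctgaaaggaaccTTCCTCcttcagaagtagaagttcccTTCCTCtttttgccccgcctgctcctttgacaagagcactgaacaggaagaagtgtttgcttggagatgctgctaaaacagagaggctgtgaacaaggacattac
Clec4d: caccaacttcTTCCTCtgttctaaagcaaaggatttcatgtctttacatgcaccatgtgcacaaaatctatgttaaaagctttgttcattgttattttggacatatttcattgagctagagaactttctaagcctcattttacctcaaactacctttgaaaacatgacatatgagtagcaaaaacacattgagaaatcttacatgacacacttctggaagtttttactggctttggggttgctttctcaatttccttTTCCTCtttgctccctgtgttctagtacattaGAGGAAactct
Clec4e: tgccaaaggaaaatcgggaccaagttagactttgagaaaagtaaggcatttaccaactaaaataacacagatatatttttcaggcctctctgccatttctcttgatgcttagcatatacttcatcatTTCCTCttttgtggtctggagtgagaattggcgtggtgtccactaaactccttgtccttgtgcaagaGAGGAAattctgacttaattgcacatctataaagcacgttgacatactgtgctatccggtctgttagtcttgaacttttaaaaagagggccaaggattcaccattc
The core occurs at -96 from the start site in Clec7a, at -81 and -55 in Clec5a, at -240, 8 and 40 in Clec4d and at -123 and -56 in Clec4e. It is thus in the promoter of genes that rose and of genes that fell.

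Over both strands, GAGGAA was in 7 of the 8 promoters, against 31.25% of the promoters of 27025 genes. Because GAGGAA was chosen after these promoters had been read, that contrast is not a test. Clec4a2 had none, and Clec4a3 had it at 1 of its 2 start sites. The AP-1 motif TGANTCA was in that of Clec4a2 alone (8.97% of all genes), the C/EBP motif TTGCNNAA in that of Clec4e alone (12.2%), and the interferon response motif GAAANNGAA in that of Clec4d alone (9.76%). Neither the NF-kB motif GGGANTTTC (1.29% of all genes) nor the E-box CACGTGA (4.29%) was in any of the 8. These are matches of letters in a window and not evidence of binding.

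Genes whose profile over the 6 libraries was most like that of Clec7a were found among 6555 tested genes whose mean reached 10 FPKM at 1 of the times or both. Likeness was the root mean square difference between centred profiles of log2(FPKM + 1). Nearest was the growth factor gene Igf1 (0.0893), with 98.0, 101 and 89.0 FPKM at 7 days, against 11.9, 15.6 and 12.1 FPKM at 3 days. Mamdc2 (0.161), the costimulatory receptor gene Cd28 (0.175), Gm5547 (0.189) and the Ly49 receptor gene Klra3 (0.191) followed. Nearest to Clec4n, taken as the gene with the most negative difference of log2(FPKM + 1), were Phf11d (0.0851), the cell cycle inhibitor gene Cdkn1a (0.115) and the nucleoside kinase gene Dck (0.119). Phf11d had 16.0, 20.9 and 18.5 FPKM at 7 days, against 34.0, 42.0 and 48.6 FPKM at 3 days.

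The counts for gene lists stand beside the shares over all tested genes given above, 18.8% called higher and 20.3% called lower. Of a list of 30 other C-type lectin receptors, 16 had a row and 15 were tested; 7 were called higher and 3 lower at 7 days, with a median log2 difference of 0.42; the 3 of 15 called lower are close to the share over all genes. Clec12a, an inhibitory receptor for uric acid crystals and a gene of the dectin-1 cluster, was at 512, 489 and 548 FPKM at 7 days, against 102, 117 and 162 FPKM at 3 days. Its log2 difference of 2.04 ± 0.17 (SE; limma adjusted p = 0.00046) was the largest in the list. Ly75 (DEC-205, an endocytic receptor) averaged 8.66 ± 0.303 FPKM at 7 days, against 2.62 ± 0.249 FPKM at 3 days (SD, n = 3 each). Colec12, a scavenger receptor with a collectin domain, averaged 16.9 ± 0.703 FPKM at 7 days, against 7.20 ± 0.928 FPKM at 3 days. Both rose, by 1.42 and 1.13 on the log2 scale. Cd209c, of the DC-SIGN family, averaged 1.03 ± 0.228 FPKM at 7 days and 3.84 ± 0.824 FPKM at 3 days and fell by 1.24. Without 7-day replicate 1, 4 members of the list were called higher.

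The adaptors through which these receptors signal were only partly measured. Tyrobp, the adaptor of Clec5a, was at 761, 1083 and 844 FPKM at 7 days, against 172, 285 and 270.1 FPKM at 3 days. It rose by 1.90 ± 0.23 on the log2 scale (SE; limma adjusted p = 0.00124), with no overlap, alongside Clec5a. Hcst (DAP10), its relative, averaged 2.44 ± 0.257 FPKM at 7 days and 0.690 ± 0.160 FPKM at 3 days and rose by 1.03. So 2 of 2 tested adaptors were higher. Fcer1g, the adaptor of Clec4d, Clec4e and Clec4n, has no row and was not analysed here.

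Downstream of the receptors, the Syk and Card9 pathway was called higher in 9 of 24 tested genes and lower in 0. The median log2 difference was 0.18. Genes at 5 FPKM or more, a level that most of this list reached, had a median of 0.14, with 2385 of 8606 called higher. Syk itself was at 76.0, 66.0 and 72.98 FPKM at 7 days, against 52.6, 37.03 and 47.7 FPKM at 3 days, a log2 difference of 0.65 ± 0.14 (SE; limma adjusted p = 0.011). Vav2, a guanine nucleotide exchange factor, rose by 0.78, Prkcd, the kinase that acts on Card9, by 0.59 and Malt1, a protease of the Card9 complex, by 0.42. The calls of Syk and Malt1 were lost with quantile normalization. These differences are small beside that of Clec7a. The count of 9 was 2 with quantile normalization and 4 without any 1 of the 7-day libraries, and 1 or 2 members were called lower in 5 of the 15 settings. Bcl10, the partner of Card9, had 19.9, 22.5 and 18.3 FPKM at 7 days, against 18.2, 16.7 and 18.1 FPKM at 3 days, and was not called.

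Of 7 inhibitory signalling genes, 2 were called higher and 1 lower, with a median log2 difference of 0.05, so the counts of this short list are close to the shares over all genes. Ptpn6 (SHP-1, a phosphatase recruited by inhibitory motifs) averaged 181 ± 14.7 FPKM at 7 days and 118 ± 7.86 FPKM at 3 days and rose by 0.62. Dok1, an adaptor that restrains kinase signalling, rose by 0.52, whereas its relative Dok2 averaged 3.08 ± 0.415 FPKM at 7 days and 7.83 ± 0.232 FPKM at 3 days and fell by 1.12. Dok1 was the gene that lost its call with quantile normalization and without any single library other than 3-day replicate 3.

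Genes that these receptors can induce mostly did not follow Clec7a. Of 11 tested, 1 was called higher and 6 lower, with a median log2 difference of -0.69. Il1b, an inflammatory cytokine, had 2.15, 1.78 and 1.76 FPKM at 7 days, against 4.54, 6.57 and 6.14 FPKM at 3 days, and fell by 1.21. The neutrophil chemokine Cxcl2 fell by 1.45, and Ptgs2, the inducible cyclooxygenase, by 1.47. Egr2, a transcription factor gene, averaged 4.21 ± 1.17 FPKM at 7 days and 1.56 ± 0.228 FPKM at 3 days and rose by 1.00. Without 7-day replicate 1 the count called lower was 3, and without 7-day replicate 2 it was 2, with Ptgs2 at a limma adjusted p of 0.0505.

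Of 5 tested genes for host ligands of these receptors, 1 was called higher, 0 lower. Anxa5, an annexin listed as a ligand of dectin-1, averaged 755 ± 58.2 FPKM at 7 days and 494 ± 63.3 FPKM at 3 days, a log2 difference of 0.62; the call was lost with quantile normalization and without 7-day replicate 3. The count called lower was 2 with quantile normalization and 1 without 3-day replicate 1. Among 4 tested transcription regulators of myeloid cells, 2 were called higher and 2 lower. Spi1, the gene for PU.1, and Irf4 were in the list of 6 but have no row. Cebpa averaged 48.3 ± 5.01 FPKM at 7 days and 31.1 ± 3.55 FPKM at 3 days and rose by 0.62, and Stat6, which acts after interleukin 4, rose by 0.34. Cebpb, known from mouse work to drive Clec4e, had 13.9, 19.6 and 21.4 FPKM at 7 days, against 78.6, 32.2 and 52.8 FPKM at 3 days, and fell by 1.46. Klf4, a factor of monocyte differentiation, fell by 1.17 with 2.55 ± 0.0908 FPKM at 7 days and 7.01 ± 0.669 FPKM at 3 days. The call of Stat6 was lost with quantile normalization and without any single library other than 3-day replicate 1.

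**Figure D5:**
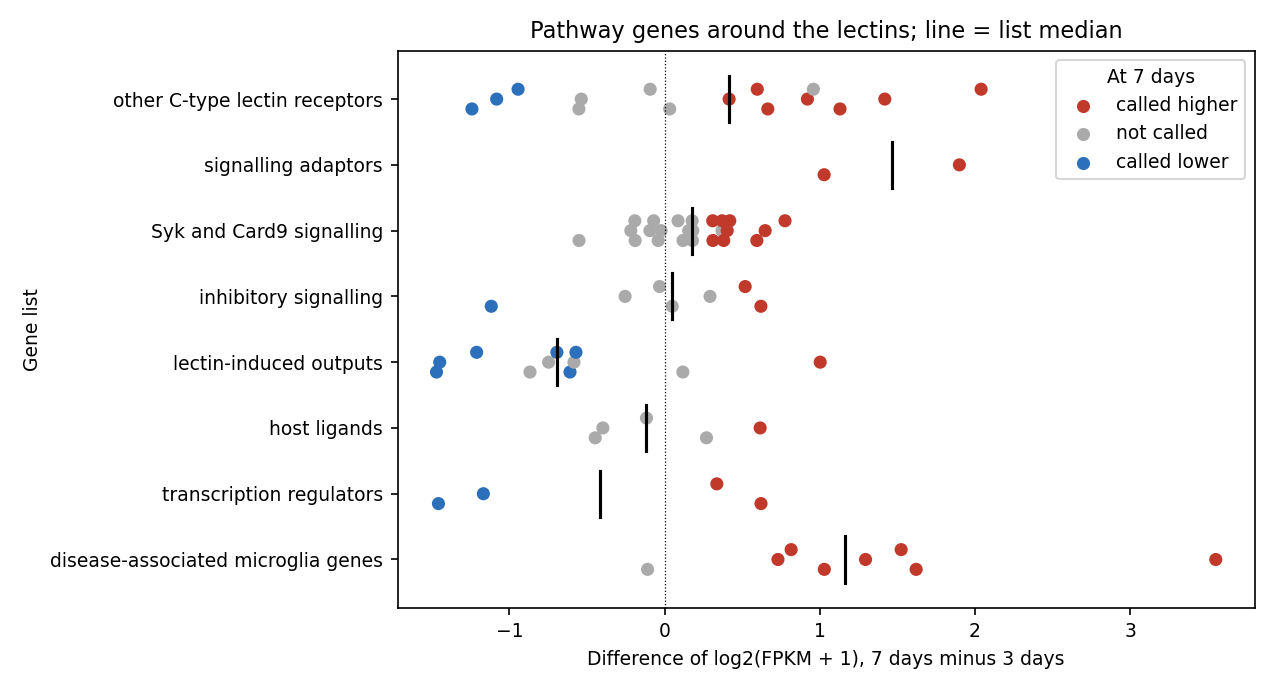
Difference of log2(FPKM + 1), 7 days minus 3 days, for the tested genes of each pathway list, 1 dot per gene, with a line at the list's median. Red marks genes called higher at 7 days, blue called lower and grey not called; the medians run from -0.69 (lectin-induced outputs) to 1.46 (adaptors), and Lpl lies farthest to the right at 3.55.

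Genes known to rise together with Clec7a in disease-associated microglia were called higher in 7 of 8 tested, and 0 were called lower, with a median log2 difference of 1.16. Lpl (lipoprotein lipase) had 375, 305 and 410.3 FPKM at 7 days, against 31.0, 25.6 and 33.4 FPKM at 3 days, and rose by 3.55. Trem2, a lipid receptor that signals through Tyrobp, averaged 895 ± 137 FPKM at 7 days and 290.3 ± 43.1 FPKM at 3 days and rose by 1.62. Itgax (CD11c) rose by 1.52 and the receptor kinase Axl by 1.29, whereas Csf1 had 13.4 ± 1.41 FPKM at 7 days and 14.6 ± 1.08 FPKM at 3 days and was not called. Gpnmb, Apoe and Ctsd of the same list are listed at 0 in every 7-day library beside high values at 3 days and were not tested. Clec7a has been used to define that microglial state in other studies, so the list was not chosen independently of it.

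Markers of other cells moved with time too. Of 6 tested microglia markers, 5 were called higher and 0 lower, and their summed level was 251 to 289 FPKM at 7 days, against 132 to 165 FPKM at 3 days. The count called higher was 3 without 7-day replicate 1 or 2, and 1 was called lower without 3-day replicate 1. Sall1, a defining marker, went the other way at low levels. It averaged 0.167 FPKM at 7 days and 0.845 FPKM at 3 days, a log2 difference of -0.64 that was not called. Of 6 inflammatory monocyte markers, 0 were called higher and 4 lower, with sums of 172 to 226 FPKM at 7 days, against 458 to 525 FPKM at 3 days. Of 8 macrophage markers, 3 were called higher and 2 lower, with sums of 1462 to 1509 FPKM at 7 days, against 1382 to 1594 FPKM at 3 days. Of 7 neutrophil markers, 2 were called higher and 2 lower. Their sums were 74.7 to 91.3 FPKM at 7 days, against 66.6 to 75.4 FPKM at 3 days. Mpo, not called, was at 0 at 7 days and at 0, 0.678 and 3.92 FPKM at 3 days. Of 5 dendritic cell markers, 1 was called higher and 2 lower. Their sums were 21.3 to 21.6 FPKM at 7 days, against 38.9 to 43.1 FPKM at 3 days. Ccr7, not called, was at 0 at 7 days and at 0.124, 0.792 and 0 FPKM at 3 days. Markers of cells other than leukocytes were mostly lower at 7 days. The counts called lower were 6 of 6 tested for neurons, 5 of 5 for oligodendrocytes and 5 of 6 for astrocytes. They were 5 of 6 for endothelium, 3 of 5 for fibroblasts and pericytes and 4 of 4 for erythroid cells. Without 7-day replicate 1 or 2 the counts for astrocytes and for fibroblasts and pericytes were 2 and 0. The T and NK cell list had 1 gene tested and not called, and the B cell list 1 tested and called higher. The part of these shifts in the lectin results was not tested. Whether microglia carried the tag in these chimeras was also not tested. Neither the microglia markers nor the disease-associated list therefore assigns the values to microglia.

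Genes at 1 FPKM or more numbered 10248 to 10402 in the 7-day libraries and 11147 to 11675 in the 3-day libraries. The top 50 genes took 17.4% to 19.7% of the FPKM at 7 days and 14.6% to 27.6% at 3 days, where replicate 3 was highest. Pairs of libraries correlated at 0.977 to 0.983 within 7 days, 0.964 to 0.971 within 3 days and 0.913 to 0.938 between the times, over genes. The number of reads is unknown, because values were deposited as FPKM. Steps between low FPKM values put 3-day replicates 2 and 3 at 0.940 and 0.758 times the depth of 3-day replicate 1, and 7-day replicate 2 at 0.818 times. The leading step rested on 18 to 31 genes in the 5 libraries set against it, with 10 to 25 genes at the next, so depth is poorly determined, least clearly for 7-day replicates 1 and 3.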

How the data were processed

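RNA bound to tagged ribosomes was taken from the injury site and made into ScriptSeq v2 libraries, per the labels' protocols, with 3 libraries at each time. The submitters' processing notes name the mouse build mm10, Cuffdiff 2.2.1, Cufflinks 2.2 and TopHat2 2.0.12. Per the file headers, the authors deposited FPKM per gene and library; how the libraries were scaled is not given in the sources used here. The authors' log2 fold changes and their p-values and q-values are deposited beside them.

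From the unfiltered table of 13960 rows, 918 were set aside: 45 without an OK status, 838 whose libraries do not average to the deposited mean within 1%, 14 at 0 beside 100 FPKM or more, and 32 of repeated symbols, some for more than 1 reason. The 13042 other genes were fitted, with no filter, as log2(FPKM + 1) in limma 3.58.1 (R 4.3.3) with a mean-dependent prior variance, two-sided, as 7 days minus 3 days, and p-values were adjusted over all of them by Benjamini-Hochberg. Differences on this scale understate changes of low genes. In simulated data of 13042 genes for this comparison, 72.3% of 94 genes changed by a log2 of 1 and 95.3% of 106 changed by 2 were recovered, with 8 false calls (4.52% of calls). The changed genes were drawn only from those whose larger group mean was 5 FPKM or more. Recovery of genes as low as Mgl2 is therefore not covered. Far fewer genes were changed in the simulation than were called in the data. Python 3.11.15 with pandas 2.3.3, numpy 2.4.6, scipy 1.17.1 and matplotlib 3.10.9 did the rest.

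The members, gene lists and tests were chosen with earlier results of these data known. Named genes are all members, up to 4 called genes with the largest change in each pathway list whose larger mean is 1 FPKM or more, Tyrobp and Fcer1g always, the 5 genes most like Clec7a and the 3 most like the member with the most negative change; marker lists are given by counts and sums, with 1 marker not reported here, and other genes named are there for their position or as contrasts. Alternatives were another pseudocount (0.1), filters on low values, the authors' filtered table, quantile normalization, median centring, 1 prior variance for all genes, no rows set aside, a replicate block and each library left out.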

Additional observations from a re-analysis of the deposited data

How the results depend on the processing

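Clec7a, Clec5a, Clec4d and Clec4n kept their direction and their call in all 15 alternatives, with adjusted p up to 0.00218, 0.00363, 0.026 and 0.0163. Of the genes called lower, the count among the 10 lectins was 2 with quantile normalization, 2 with median centring and 2 to 3 when 1 library was left out; the calls of Clec4e and Mgl2 were the ones lost. Clec4a1 ran from -0.264 to 0.0375 (log2) when 1 library was left out and was above 0 without 3-day replicate 3. Over all genes, 2453 were called higher and 2645 lower. Left-out libraries gave 1572 to 2207 higher and 1697 to 2565 lower, with the fewest of both without 7-day replicate 2. Filters gave 2385 higher and 1487 lower at 5 FPKM or more, and 2359 and 1419 in the authors' filtered table, both of which test fewer genes. Quantile normalization gave 2317 higher and 1809 lower, and median centring 2920 and 2321. Mgl2 has no value at 5 FPKM or more. Of 38 called genes outside the 10 lectins, 30 kept their call in every alternative that gave a value; Syk, Malt1, Anxa5, Stat6, Dok1, Ptgs2, Clec1a and Klrk1 lost it in at least 1. Klrb1b, not called, was at 0.460 with quantile normalization, 0.0304 with median centring and -0.262 to 0.152 when 1 library was left out. Of 630 counts for the gene lists over the alternatives, 77 moved by over 1.5 times. The replicate numbers gave no clear pairing of the libraries. Deviations from the group means correlated at 0.10, 0.005 and 0.005 for the same numbers, and not every library correlated best with its own number. With 3 libraries at each time, this check cannot exclude a pairing. With the replicate block, 2450 genes were called higher and 2425 lower, Mgl2 had an adjusted p of 0.0533 and Clec4a3, whose replicate 2 was highest and replicate 1 lowest at both times, one of 0.00585. Depth is unknown, so no counting error is given for genes as low as Mgl2.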

Other observations

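A second family of lectin-like receptors, the natural killer cell receptor genes whose symbols begin with Klr, has 6 rows in the table, and all were looked up after Klra3 had been found among the genes most like Clec7a. Klra3 averaged 13.9 ± 1.83 FPKM at 7 days, against 1.18 ± 0.118 FPKM at 3 days (SD, n = 3 each), a log2 difference of 2.77, and Klra17 averaged 3.87 ± 0.506 FPKM at 7 days, against 1.14 ± 0.613 FPKM at 3 days, a log2 difference of 1.23. Both were called higher at 7 days, whereas Klrk1, at 0.862 ± 0.416 FPKM at 7 days and 2.74 ± 0.799 FPKM at 3 days, was called lower, a call lost with quantile normalization and without 3-day replicate 3 or 7-day replicate 2 or 3 (limma adjusted p between 0.0504 and 0.147). Klra2 had 25.2 ± 7.89 FPKM at 7 days and 35.7 ± 1.36 FPKM at 3 days and was not called, except with quantile normalization or without 7-day replicate 1 (limma adjusted p = 0.0346 and 0.0242), and neither were Klrb1b and Klrd1. The Klra genes are close copies of each other, and their values are uncertain where the counting split reads among them.

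Clec1b, a platelet and myeloid receptor of the dectin-1 cluster, had 2.38, 5.29 and 3.72 FPKM in the 7-day libraries, against 0.528, 0.684 and 0.665 FPKM in the 3-day libraries. It was not tested because its row was set aside. The deposited log2 fold change of Clec1b is minus infinity, which points the other way from these library values, so its direction is uncertain.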
